A study of Mus musculus with 3 samples.

Results

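The nuclear genes that encode the subunits of the mitochondrial respiratory chain and of ATP synthase were examined in bone-marrow-derived macrophages. They were chosen by gene symbol: every symbol that begins with Ndufa, Ndufb, Ndufc, Ndufs or Ndufv and a digit, with Uqcr, with Cox4 to Cox8 or with Atp5, together with Sdha, Sdhb, Sdhc and Sdhd, where at least 1 transcript of the gene is annotated as protein-coding. This gave 85 gene identifiers with 84 symbols, of 55536 mouse genes in the quantification, because Atp5o carries 2 identifiers. Another 12 identifiers matched by symbol but had no protein-coding transcript. The rule does not reach every nuclear subunit: Cyc1 (cytochrome c1 of complex III) and Ndufab1 (the acyl carrier protein of complex I) are outside it. By complex, 35 genes belonged to complex I, 4 to complex II, 8 to complex III, 20 to complex IV and 18 to complex V. Ndufa4 and Ndufa4l2 were placed with complex IV, where the NDUFA4 protein is now known to reside. Atp5s is named after ATP synthase but encodes a factor that is not a subunit of it.

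The samples were macrophages grown from the bone marrow of C57BL/6J mice, an inbred strain, and stimulated for 180 minutes. The agent was given at 100 ng/mL and is named lipid A, the membrane anchor of bacterial lipopolysaccharide, in one label and lipoprotein A in another. Poly(A)-selected RNA was sequenced from 3 libraries numbered as biological replicates 1, 2 and 3, all of this single group. The labels give the same donor identifier to all 3 and do not say whether they came from separate animals or cultures, so the spread between them may be technical. No unstimulated macrophages were analysed here, so none of the values below is a response to the stimulus.

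Complex I (NADH dehydrogenase) and complex II (succinate dehydrogenase) pass electrons to ubiquinone, complex III passes them from ubiquinol to cytochrome c, and complex IV (cytochrome c oxidase) passes them to oxygen. The proton gradient that complexes I, III and IV build drives complex V, the ATP synthase. All of complex II and most subunits of the others are encoded in the nucleus and imported, while a small core is encoded by mitochondrial DNA. In macrophages that meet bacterial products, respiration is known to give way to glycolysis and succinate oxidation at complex II is known to feed the production of reactive oxygen species.

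The libraries held 24450338, 34641026 and 60595742 estimated counts over mouse genes in replicates 1, 2 and 3. All 10 macrophage markers examined were detected, from Itgam at a mean of 61.1 TPM to Lyz2 at 18063 TPM, and the markers of erythroid, striated muscle and stromal cells were not (0 of 6, 0 of 11 and 0 of 6). Neutrophil markers summed to 113, 761 and 61.8 TPM (the length-scaled relative abundance explained below) in replicates 1, 2 and 3, with 4 of 10 detected, S100a9 the highest and Ly6g at 0 in all libraries. Stromal markers, though not detected in all 3 libraries, summed to 0.510, 7.58 and 0.910 TPM, and Dcn among them had 0, 176 and 1 counts. Replicate 2 stood apart in both respects. Among T cell markers 1 of 6 was detected, with sums of 34.9, 25.2 and 46.5 TPM, and it was Lck. Among B cell markers 1 of 5 was detected, with sums of 1.43, 2.71 and 1.5 TPM, and it was Cd79b. In such bulk samples, fewer cells of a type and less RNA per cell cannot be told apart.

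Promoter sequences are shown first, because regulators of these genes have well-known binding sequences. RefSeq promoter windows on GRCm38.p6, running from 250 bases before to 50 bases after a start site, were matched to 62 of the 77 genes detected in all 3 libraries. Windows were searched on both strands for the sequence of NRF1 (GCGCA and GCGC separated by 1 base of any kind), of the ETS factor GABP (CCGGAAG), of YY1 (AAGATGG) and of the estrogen-related receptor ESRRA (TCAAGGTCA). The stretches below lie upstream of the start site, outside every annotated exon, and capitals mark the matches.

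Ndufs5: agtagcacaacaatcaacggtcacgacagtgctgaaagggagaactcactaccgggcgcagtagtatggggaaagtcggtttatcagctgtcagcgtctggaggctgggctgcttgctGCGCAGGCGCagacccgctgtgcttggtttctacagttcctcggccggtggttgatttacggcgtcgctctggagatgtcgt
Uqcr11: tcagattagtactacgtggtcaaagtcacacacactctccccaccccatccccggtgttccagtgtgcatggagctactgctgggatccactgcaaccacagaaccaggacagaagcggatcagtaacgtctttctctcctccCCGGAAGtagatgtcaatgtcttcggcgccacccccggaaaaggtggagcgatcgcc
Cox6a1: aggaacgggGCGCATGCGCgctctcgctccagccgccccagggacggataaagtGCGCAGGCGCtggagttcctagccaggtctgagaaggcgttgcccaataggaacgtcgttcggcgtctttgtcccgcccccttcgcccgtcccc
Atp5g3: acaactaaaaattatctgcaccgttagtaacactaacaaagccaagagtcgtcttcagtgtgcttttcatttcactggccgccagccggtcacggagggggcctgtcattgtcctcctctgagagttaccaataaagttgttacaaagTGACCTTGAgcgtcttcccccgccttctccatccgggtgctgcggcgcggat
Cox8a: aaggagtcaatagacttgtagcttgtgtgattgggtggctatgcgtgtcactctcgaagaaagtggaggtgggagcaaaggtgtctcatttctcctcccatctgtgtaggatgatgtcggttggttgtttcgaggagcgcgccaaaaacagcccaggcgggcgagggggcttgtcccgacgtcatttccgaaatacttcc
Cox8b: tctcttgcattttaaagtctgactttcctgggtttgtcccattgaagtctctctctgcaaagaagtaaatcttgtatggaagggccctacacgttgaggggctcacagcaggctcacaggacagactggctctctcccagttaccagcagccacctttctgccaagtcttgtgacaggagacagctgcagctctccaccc

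These stretches are Ndufs5 at chr4:123718203-123718402, Uqcr11 at chr10:80406831-80407030, Cox6a1 at chr5:115348982-115349129, Atp5g3 at chr2:73911327-73911526, Cox8a at chr19:7217617-7217816 and Cox8b at chr7:140900447-140900646, all on the minus strand. Ndufs5 carries 1 NRF1 match and Cox6a1 carries 2, Uqcr11 carries 1 GABP match, and Atp5g3 carries an ESRRA match in the reverse orientation. Cox8a, which was abundant in these macrophages, and Cox8b, which had no counts, are shown as a pair of isoform promoters without a match in the printed stretch. The GABP matches of Cox8a, of which 1 crosses the start site and the other lies after it, are not whole in that stretch. Sequences were chosen for display after the levels were seen.

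Over the 62 windows, the NRF1 sequence was found in 16 (25.8%), against 12.5% of the 7017 matched windows of all detected protein-coding genes and 4.60% of all 32851 windows in the table. The GABP sequence was found in 15 (24.2%), close to the 22.3% of the detected protein-coding genes. Sdhd, Cox6a1, Atp5h and Atp5k held both. The ESRRA sequence was found in 2 (3.23%) against 0.200%, and a TATA box (TATAAA) in 5 (8.06%) against 6.56%. A match describes the letters of the window and not binding, and a missing match says only that these letters are absent from it.

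The YY1 sequence was found in 8 windows (12.9%, against 8.45% of the detected protein-coding genes), and 7 of the 8 belonged to complex I, the other to Cox7c. In each of these 7 it lay 23 to 39 bases after the RefSeq start, on the coding strand, and its ATG was an annotated start codon of the gene. This was the case in 7 of the 30 complex I windows (23.3%), in none of the 3, 5, 11 and 13 windows of complexes II, III, IV and V, and in 162 of the 7017 windows of the detected protein-coding genes (2.31%). The pattern was chosen for description after it was seen. The matches are printed with up to 10 bases on either side, capitals marking the sequence searched.

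Ndufa3: cgccaagaacAAGATGGccgggagtaa
Ndufa9: attgtgggagAAGATGGcggccgccgt
Ndufb8: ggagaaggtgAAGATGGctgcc
Ndufc1: cctgcggaacAAGATGGcgccgtccgt
Ndufs4: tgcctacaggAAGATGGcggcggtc
Ndufs6: ggtcaccggcAAGATGGcggcggtgct
Ndufs7: ggccgaggccAAGATGGcggcgctggc

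They lie at chr7:3617385-3617411 (Ndufa3, plus strand), chr6:126849099-126849125 (Ndufa9, minus), chr19:44555393-44555414 (Ndufb8, minus), chr3:51408917-51408943 (Ndufc1, minus), chr13:114388045-114388069 (Ndufs4, minus), chr13:73328433-73328459 (Ndufs6, minus) and chr10:80249463-80249489 (Ndufs7, plus). The 7 genes spanned much of the range of complex I, from 39.5 TPM for Ndufa9 and 42.7 TPM for Ndufs7 to 145 TPM for Ndufb8 and 173 TPM for Ndufa3.

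The respiratory chain genes were abundant as a group. Of the 85 identifiers, 77 reached 1 TPM or more in all 3 libraries, or 90.6%, against 42.6% of all protein-coding genes. TPM scales counts by the effective length of the transcripts and by the library's total, so that levels of different genes can be set side by side. Among the 77, 74 lay above the median of all 10026 detected genes in every library; the exceptions were Ndufb4, Atp5s and Cox7a1. At 100 TPM or more in all 3 libraries were 39 of the 77 (50.6%), against 11.4% of all detected genes. The median over the 85 identifiers was 90.2, 94.1 and 94.4 TPM in replicates 1, 2 and 3, and the median of all detected genes was 14.6, 15.2 and 14.1 TPM. On the log2(TPM + 0.1) scale the median of the group lay above that of the detected genes by 2.66 ± 0.06 (SD, n = 3). Together the group took 1.14%, 1.28% and 1.21% of all TPM.

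**Figure D1:**
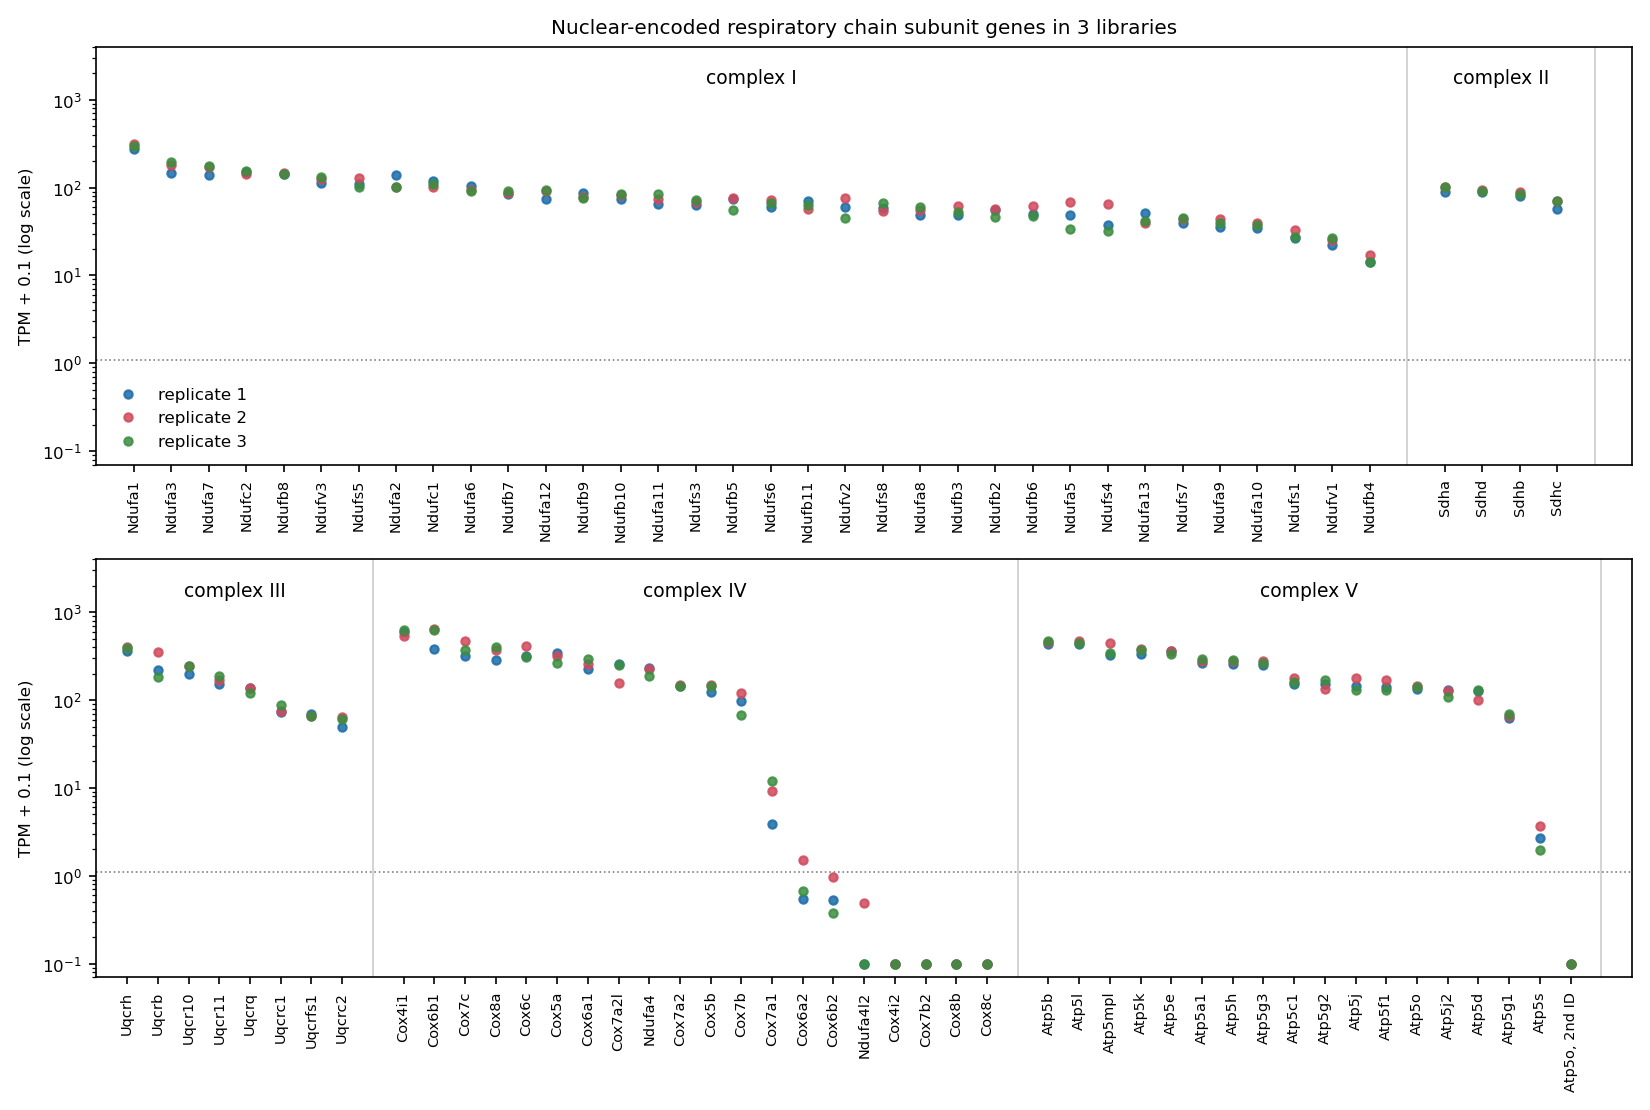
TPM + 0.1 on a log scale for 84 of the 85 gene identifiers, ordered by mean within each complex, with 1 point per library (blue, red and green for replicates 1, 2 and 3) and a dotted line at 1 TPM. Complexes I, II and III lie wholly above the line, and the 8 identifiers not above it in all libraries belong to complexes IV and V.

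Complexes differed in level in the same order in all 3 libraries. The median of complex I was the lowest, at 64.7, 73.7 and 66.8 TPM in replicates 1, 2 and 3. Complex II followed at 84.5, 91.6 and 88.7 TPM. Complexes III, IV and V were higher, with means of 150 ± 4.74, 142 ± 6.17 and 166 ± 13.1 TPM (SD, n = 3). The libraries of complex I did not overlap those of any other complex, and those of complex II were below those of complexes III, IV and V. On the log2(TPM + 0.1) scale the difference of medians was -0.37 ± 0.05 for complex I minus complex II, -1.12 ± 0.06 for complex I minus complex III and -1.28 ± 0.04 for complex I minus complex V. Complex II minus complex III was -0.75 ± 0.02, but -0.055 with counts scaled by full transcript length, a scaling added after seeing the data. On that scale complex I minus II was -0.65 and complex I minus III was -0.71.

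The order of complexes III, IV and V depended on which genes of complex IV were counted. Over all 20, the difference was 0.06 ± 0.03 for III minus IV and -0.22 ± 0.05 for IV minus V. Over the 13 detected genes the median of complex IV was 255, 260 and 266 TPM, the highest of the 5, and the same differences were -0.81 ± 0.04 for III minus IV and 0.63 ± 0.10 for IV minus V. No test is given for these differences, since the genes of a complex are not replicates.

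**Figure D2:**
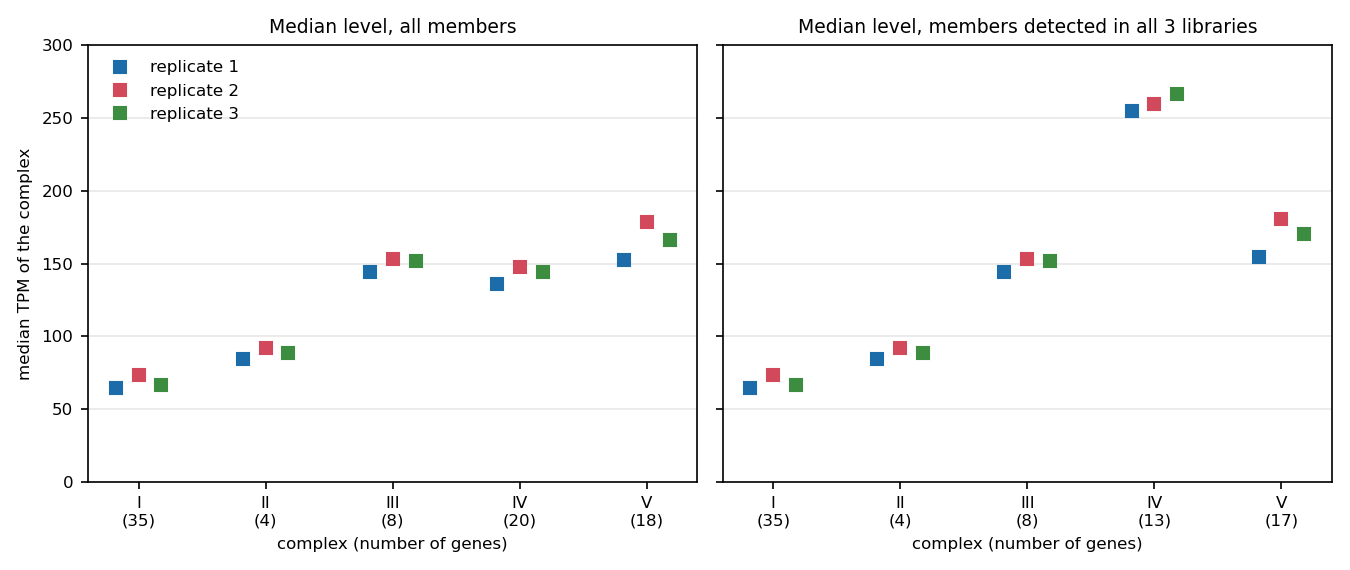
Median TPM of each complex in each library, over all identifiers (left) and over those at 1 TPM or more in all 3 libraries (right), with the number of genes in brackets and 1 square per library. Complex IV moves from 136 to 148 TPM on the left to 255 to 266 TPM on the right, while complexes I, II and III are the same in both.

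All 35 complex I genes chosen by the rule were detected, and their means ran from 15.0 to 295 TPM. The highest was Ndufa1, a small membrane-arm subunit encoded on the X chromosome, at 273, 311 and 302 TPM in replicates 1, 2 and 3. Next came the accessory subunits Ndufa3 at 145, 180 and 194 TPM and Ndufa7 at 141, 171 and 176 TPM. Ndufa1 stood above both in every library without overlap.

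The 7 core subunits, which hold the flavin, the iron-sulphur clusters and the quinone site, were lower than the 28 accessory subunits. Their median was 59.1, 54.4 and 45.6 TPM, against 73.6, 77.2 and 79.8 TPM for the accessory subunits. The core genes were also longer, with a median transcript length of 1215 bases against 648 bases. The part of length in the difference was not tested. Ndufv1, which binds NADH and the flavin, had 22.1, 25.3 and 26.6 TPM. Ndufs1, the largest iron-sulphur subunit, had 26.4, 33.1 and 27.1 TPM. These were the lowest of the core subunits in every library.

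Ndufv1 was below its partner Ndufv2 in 3 of 3 libraries, by a mean log2 ratio of -1.27 ± 0.43, where Ndufv2 had 60.2, 75.7 and 45.6 TPM. Ndufs7, which carries the last iron-sulphur cluster before the quinone, had 39.2, 43.7 and 45.3 TPM, above Ndufv1 and below Ndufv2 in every library. For Ndufs1 the annotated exons overlap those of Eef1b2, a translation factor gene on the other strand at 450, 286 and 322 TPM. The sources used here do not say whether counting used the strand, so reads of these genes may not be told apart.

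In complex II the 4 subunits were close to one another. Sdha, the flavoprotein that oxidizes succinate, had 88.1, 103 and 103 TPM. Sdhb, the iron-sulphur subunit, had 80.9, 89.8 and 84.9 TPM, below Sdha in 3 of 3 libraries (log2 ratio of Sdha to Sdhb 0.20 ± 0.08). Of the membrane anchors, Sdhd had 89.5, 93.5 and 92.6 TPM and Sdhc had 57.7, 71.0 and 69.7 TPM. Sdhc was the lowest of the 4 in every library, with a log2 ratio to Sdhd of -0.48 ± 0.13, which was -0.14 ± 0.03 in the second quantification that the authors deposited. The highest mean of complex II was 1.48 times the lowest, where the same ratio was 19.7 for complex I. The complex I ratio was 12.0 without Ndufb4, whose coding sequence is repeated in a copy elsewhere in the genome.

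In complex III the small accessory subunits exceeded the core. Uqcrh, the hinge protein beside cytochrome c1, had 366, 401 and 397 TPM. Uqcrb had 217, 356 and 182 TPM and Uqcr10 had 197, 247 and 244 TPM. The core proteins Uqcrc1 and Uqcrc2 had 72.7, 75.5 and 87.6 TPM and 49.2, 63.9 and 60.4 TPM, and the Rieske iron-sulphur protein Uqcrfs1 had 69.1, 65.2 and 65.5 TPM. The lowest library of any of the 5 accessory genes, 121 TPM for Uqcrq, was above the highest of the core and Rieske genes. The accessory genes were shorter, with a median transcript length of 535 bases against 1732 bases for the core genes. With counts scaled by full transcript length, the means of Uqcr11 and Uqcrq were 90.9 and 95.9, close to 87.4 for Uqcrc1. The part of length in this separation was not tested. Uqcrc1 exceeded Uqcrc2 in 3 of 3 libraries (log2 ratio 0.45 ± 0.18).

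Complex IV held the gene with the highest mean of the group, Cox4i1, and 4 of the 5 identifiers with 0 counts in all libraries. Several of its subunits have isoforms, 1 common and 1 or more restricted to tissues such as muscle, lung or testis. The 11 common isoform genes had a median of 283, 316 and 297 TPM. The highest were Cox4i1, whose product is the regulatory subunit IV, at 593, 543 and 625 TPM, Cox6b1 at 381, 643 and 623 TPM, and Cox7c at 321, 474 and 371 TPM. For Cox6b1 this includes the retained-intron transcript Cox6b1-202 at 118, 332 and 313 TPM, and the protein-coding Cox6b1-201 had 262, 310 and 304 TPM. The lowest common isoforms were Cox7b at 96.6, 120 and 67.6 TPM and Cox5b at 125, 147 and 144 TPM. Cox5a exceeded its partner Cox5b in 3 of 3 libraries (log2 ratio 1.15 ± 0.28), at 340, 316 and 266 TPM.

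Of the 8 tissue-restricted isoforms, 7 were not detected at 1 TPM in all libraries. Cox4i2, a lung isoform that responds to hypoxia, the muscle isoform Cox8b, and the isoforms Cox7b2 and Cox8c, both known from testis, had 0 counts in every library. The second quantification listed Cox4i2 at 0.0792 TPM and Cox8b at 0.264 TPM in replicate 2. Against a floor of 3 counts over the 3 libraries, Cox4i1 was at least 7098-fold higher than Cox4i2, Cox8a at least 1030-fold higher than Cox8b and at least 1849-fold higher than Cox8c, and Cox7b at least 632-fold higher than Cox7b2. Cox8a had 283, 375 and 400 TPM. These floors cover counting error only.

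Low counts were found for 3 further isoforms. Cox6a2, the heart and muscle form, had 3, 13 and 9 counts (0.440, 1.42 and 0.570 TPM), where Cox6a1 had 227, 260 and 297 TPM. Cox6b2, the testis form, had 1, 3 and 3 counts, and Ndufa4l2 had 0, 1 and 0 counts, where Ndufa4 had 230, 228 and 188 TPM. The common form exceeded the restricted form in 3 of 3 libraries in each pair.

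Cox7a1, the heart and muscle form of subunit VIIa, was the exception, at 9, 27 and 61 counts. Its level was 3.8, 9.05 and 11.9 TPM in replicates 1, 2 and 3, lowest in replicate 1. Cox7a2, the common form, had 147, 149 and 144 TPM, so that Cox7a1 made up 2.53%, 5.74% and 7.63% of the pair. Striated muscle markers, by comparison, summed to 0.5, 0.190 and 1.16 TPM over 11 genes, of which 5 were at 0 in all libraries. Cox7a1 departed from equal rates between libraries (chi-square on rounded counts, Benjamini-Hochberg adjusted p = 0.0101), as did 77.5% of all 11611 genes tested. The test covers counting noise only.

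**Figure D3:**
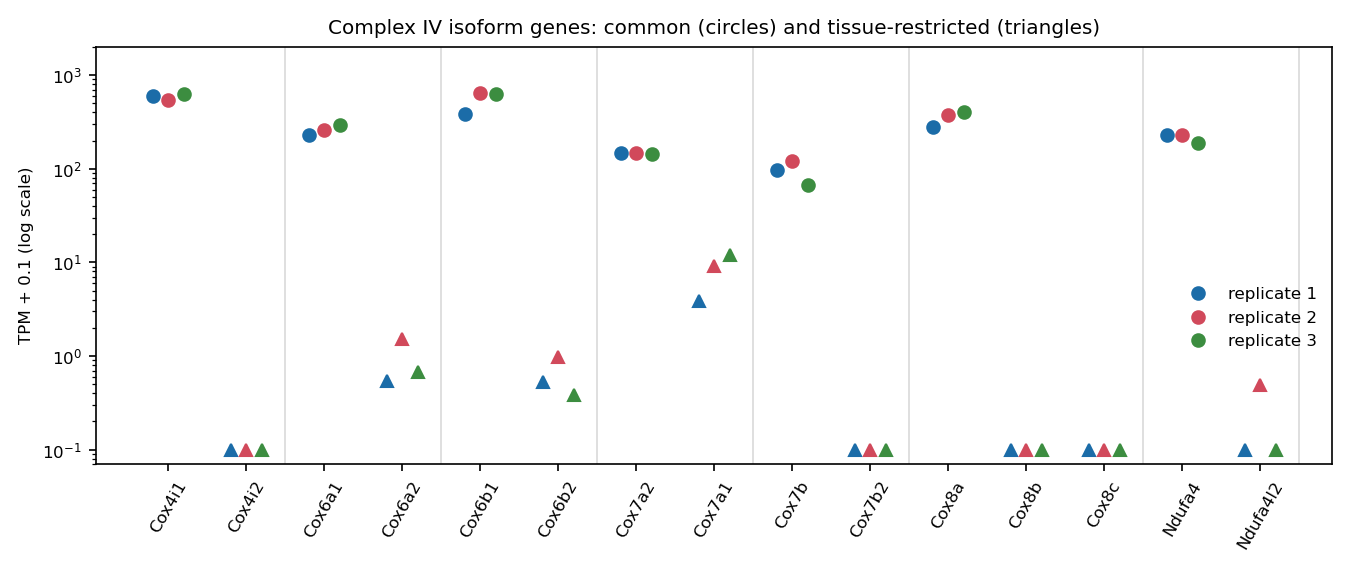
TPM + 0.1 on a log scale for the isoform genes of complex IV, with 1 symbol per library, circles for common and triangles for tissue-restricted isoforms. Every circle lies above 60 TPM, and Cox7a1 (3.8 to 11.9 TPM) is the only triangle gene above 1 TPM in all 3 libraries.

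Cox7a2l, a relative of Cox7a2 classed here as a factor for supercomplexes, which join respiratory complexes, was as abundant as the common subunits, at 255, 158 and 250 TPM. It was lowest in replicate 2, the library with the highest sums of neutrophil and stromal markers, and the part of those cells in this was not tested. Cox7a2 was below it in 3 of 3 libraries (log2 ratio -0.56 ± 0.41), by little in replicate 2. Levels of RNA carry no statement on the function of the Cox7a2l product in this strain.

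In complex V the catalytic beta subunit gene Atp5b had 439, 457 and 474 TPM, and Atp5a1, which encodes the alpha subunit, had 262, 277 and 294 TPM. The enzyme holds equal numbers of alpha and beta subunits, and the log2 ratio of Atp5a1 to Atp5b was -0.72 ± 0.03, and -0.40 ± 0.12 in the second quantification. These ratios are of whole genes, and 26.9% of the Atp5b TPM lay in transcripts not annotated as protein-coding. The protein-coding Atp5b-201 alone had 299, 365 and 337 TPM, against 256, 269 and 287 TPM for Atp5a1-201. The other high genes were the small membrane subunits Atp5l at 432, 466 and 444 TPM and Atp5mpl at 322, 451 and 343 TPM. The lowest subunit genes were Atp5g1 at 62.3, 66.2 and 68.8 TPM and Atp5d, the delta subunit of the central stalk, at 126, 99.7 and 129 TPM. Atp5s, not a subunit, had 2.56, 3.57 and 1.88 TPM. The second Atp5o identifier had 0 counts in all libraries, and the first had 134, 145 and 140 TPM.

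Atp5g1, Atp5g2 and Atp5g3 encode the same mature protein, the subunit of the c ring, with different import sequences. Atp5g3 was the highest at 248, 280 and 265 TPM, Atp5g2 followed at 154, 135 and 170 TPM, and Atp5g1 was the lowest in every library. The log2 ratio was -2.0 ± 0.07 for Atp5g1 to Atp5g3, -1.21 ± 0.16 for Atp5g1 to Atp5g2 and -0.79 ± 0.23 for Atp5g2 to Atp5g3. The place of Atp5g2 was not kept in the second quantification, as described next.

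In all, 18 pairs of isoform, relative or partner genes were compared, and in each the same gene was higher in 3 of 3 libraries. With 3 libraries the exact two-sided sign-flip permutation test cannot give less than p = 0.25, which was the p of every pair, also after Benjamini-Hochberg adjustment over the 18. The mean log2 ratio exceeded its SD in all 18.

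Many of these genes have near-identical copies elsewhere in the genome, mostly pseudogenes. Of the 85 identifiers, 25 shared no 31-base stretch of transcript with another gene, and 23 shared 10% or more of theirs. For 18 there were partner genes that lie to 50% or more within them, 29 partners in all, of which 23 are annotated as pseudogenes. Only 4 partners reached 10 TPM on average, namely Ndufb4c, Gm12338, Gm10175 and Gm10221, copies of Ndufb4, Cox7c, Atp5g2 and Atp5l. The coding sequence of each of the 4 subunit genes is repeated in its copy without a difference, over 387, 189, 438 and 309 bases. The first 60 coding bases are shown for 2 of these pairs, since identical sequence is what the counting has to divide.

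Ndufb4: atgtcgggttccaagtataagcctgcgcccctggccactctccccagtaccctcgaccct
Ndufb4c: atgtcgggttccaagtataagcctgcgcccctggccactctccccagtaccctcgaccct
Atp5g2: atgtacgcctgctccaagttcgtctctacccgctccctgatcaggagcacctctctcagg
Gm10175: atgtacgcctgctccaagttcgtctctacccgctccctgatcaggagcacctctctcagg

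On mm10, Ndufb4 lies at chr16:37647170-37654453 and its copy at chr15:73809507-73809896, and Atp5g2 lies at chr15:102662864-102672352 and its copy at chr7:23946646-23947290, all on the minus strand. Ndufb4 had 14.1, 17.02 and 14.0 TPM, the lowest of complex I, while Ndufb4c had 119, 186 and 141 TPM. Of the counts of both genes together, Ndufb4 was given 36.1%, 33.7% and 35.02%. In the second quantification, Ndufb4 was given 34.1%, 35.9% and 37.6% of the joint counts, close to the first. Every transcript stretch of Ndufb4c occurs in Ndufb4, but only 19.1% of the stretches of Ndufb4 occur in Ndufb4c. The level of Ndufb4 thus depends in part on how reads of the shared sequence were divided, which was not tested.

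For Atp5g2 the 2 deposited quantifications disagreed. In the first, Atp5g2 had 154, 135 and 170 TPM and Gm10175 had 45.1, 42.9 and 61.3 TPM. In the second, Atp5g2 had 10.7, 10.2 and 8.76 TPM and Gm10175 had 149, 160 and 181 TPM. The share of their joint counts given to Atp5g2 was 80.7%, 79.6% and 77.4% in the first and 7.80%, 6.86% and 5.42% in the second. With it, the log2 ratio of Atp5g1 to Atp5g2 turned from -1.21 ± 0.16 to 2.37 ± 0.23. Gm12338 had 253, 427 and 357 TPM in the first and 117, 0 and 0 TPM in the second. Gm10221 had 107, 18.5 and 4.52 TPM in the first and 0 in the second. These copies are short, at 192 and 309 bases, and held a small part of the counts. In the first, Cox7c was given 95.99%, 96.69% and 95.93% of its joint counts with Gm12338. Atp5l was given 93.7%, 99.1% and 99.7% of its joint counts with Gm10221. The 76 detected genes other than Atp5g2 had second values of 0.585 to 1.01 times the first, with a median over all 77 of 0.772.

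**Figure D4:**
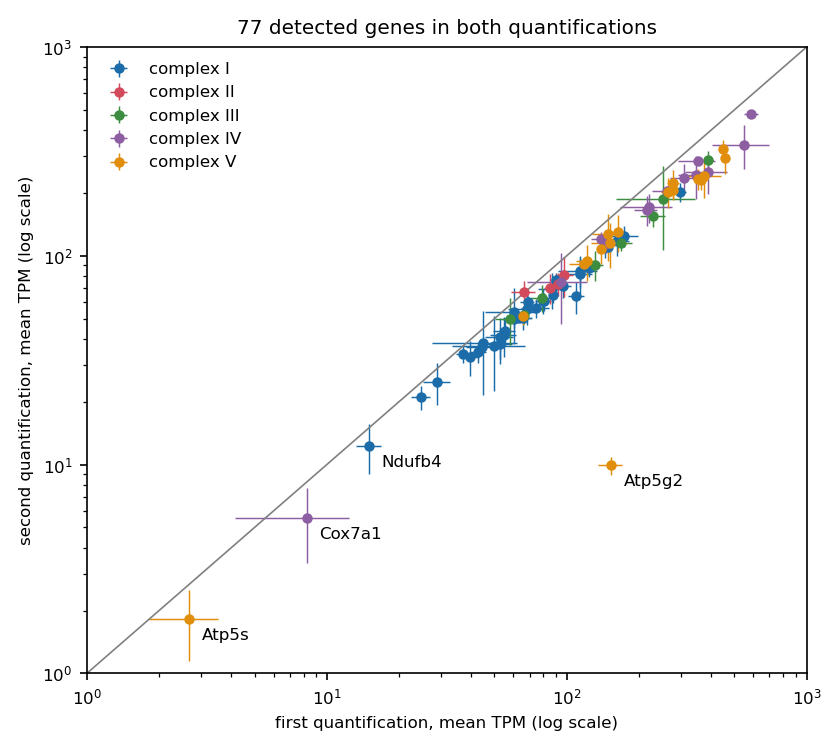
Mean TPM of the 77 detected genes in the first (horizontal) and second (vertical) deposited quantification, both on log scales, coloured by complex, with bars of 1 SD over 3 libraries and a line of equality. Atp5g2 lies far below the others, at 153 TPM in the first and 9.90 TPM in the second.

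Libraries differed from each other at most of these genes by more than counting noise. The equal-rate test called 63 of the 77 genes tested (81.8%), near the 77.5% called among all 11611 genes tested (chi-square on rounded estimated counts with scaled library sizes, adjusted p under 0.05). The highest TPM was at least 1.5 times the lowest in 9 of the 77 (11.7%), against 35.3% of all detected genes. Without replicates 1, 2 and 3 in turn the equal-rate test called 50 (64.9%), 42 (54.5%) and 36 (46.8%) of the 77, against 64.3%, 50.6% and 58.8% of all tested genes.

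By log2 CPM, which scales counts by normalised library size and not by length, 21, 20 and 36 of the 77 genes were highest in replicates 1, 2 and 3, against 31.6%, 37.8% and 30.6% of all tested genes. They were lowest in 24, 35 and 18 cases, against 32.8%, 36.6% and 30.5%. The group was thus more often highest in replicate 3 and lowest in replicate 2 than all genes, by counts that were not tested. All 4 genes of complex II were highest in replicate 3 by log2 CPM. By TPM, Sdhb, Sdhc and Sdhd were highest in replicate 2, and the equal-rate test did not call Sdhb and Sdhd. The median of the group, relative to the mean of the other libraries, was -0.02, -0.07 and 0.05 on the log2 scale in replicates 1, 2 and 3. Without replicate 3 the value of replicate 1 was 0.011, and on log2(TPM + 0.1) that of replicate 2 was 0.10, so no shift of the group between libraries is read from these values.

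The 9 genes were Ndufa5, Ndufs4 and Ndufv2 of complex I, Uqcrb of complex III, Cox6b1, Cox7a1, Cox7a2l and Cox7b of complex IV, and Atp5s. Ndufa5 had 48.3, 67.7 and 34.1 TPM and Ndufs4, a late-assembled accessory subunit, had 37.3, 64.6 and 32.4 TPM. With Ndufv2, Uqcrb, Cox7b and Atp5s they made 6 of the 9 that were highest in replicate 2 and lowest in replicate 3. Cox7a2l ran the other way and was lowest in replicate 2. For Cox6b1, the highest TPM was 2.82 times the lowest in the retained-intron transcript and 1.18 times in the protein-coding one. In Ndufs4, the protein-coding Ndufs4-201 had 11.02, 15.35 and 13.59 TPM. Ndufs4-202, annotated as a target of nonsense-mediated decay, had 17.1, 38.9 and 14.4 TPM. In Ndufa5, the non-coding Ndufa5-204 had 32.3, 49.0 and 23.6 TPM. The protein-coding Ndufa5-201 and Ndufa5-202 had 9.52, 14.5 and 9.88 TPM and 6.41, 4.2 and 0.54 TPM. Atp5s rested on 23, 50 and 53 counts and was not called by the equal-rate test (Benjamini-Hochberg adjusted p = 0.111).

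Several of these genes were low in GC content. Among the 77 tested genes, the GC content of the main transcript was lowest in Cox7b (42.0%) and Uqcrb (42.2%), and Ndufs4 and Ndufv2 were at 45.0% and 46.9%, below the group's median of 51.9%. Across the 77 genes, Spearman's rho of GC content with the deviation of a library was 0.05 in replicate 1, -0.57 in replicate 2 and 0.53 in replicate 3. Over 11603 tested genes the same values were 0.16, -0.49 and 0.43. Genes of 1 library share its preparation and are not independent, so no p is given, and the part of base composition in the differences was not tested. Nor was that of the neutrophil markers, whose sum was also highest in replicate 2 and lowest in replicate 3.

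**Figure D5:**
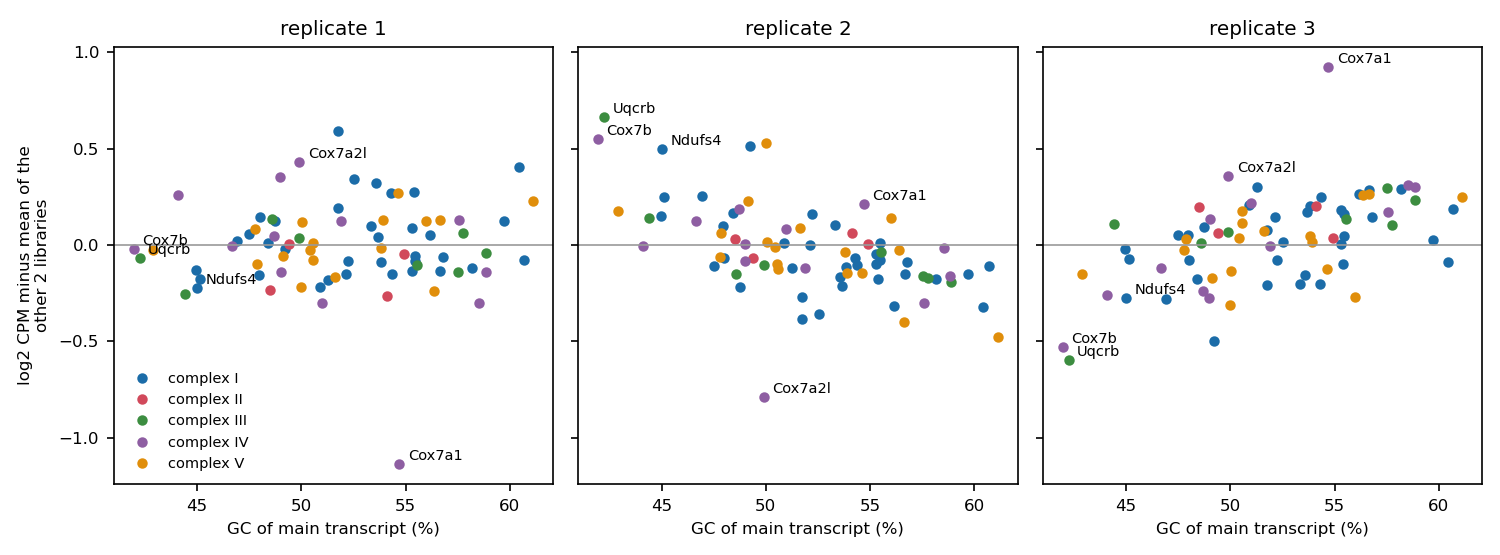
Log2 CPM in 1 library minus the mean of the other libraries, against the GC content of the main transcript, for the 77 tested genes, coloured by complex, 1 panel per replicate. Uqcrb and Cox7b, with the lowest GC content, lie at 0.66 and 0.55 in replicate 2 and at -0.60 and -0.53 in replicate 3.

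At the transcript level, 51 of the 77 detected genes had 1 transcript with 90% or more of the gene's TPM in all 3 libraries, and the main transcript was annotated as protein-coding in 75. Transcripts annotated as protein-coding held 93.1% of the summed TPM of the group. The main transcript was not protein-coding in Ndufa5, where the non-coding Ndufa5-204 held 69.6%, nor in Ndufs4, where Ndufs4-202, annotated as a target of nonsense-mediated decay, held 50.2%. In 7 genes 20% or more of the TPM lay in transcripts not annotated as protein-coding: Ndufa5, Ndufs4, Cox6b1 (44.3%), Atp5f1 (35.3%), Atp5b (26.9%), Atp5j (26.9%) and Uqcrq (21.2%). These shares are from the first quantification. In the second, Cox6b1-202 went from 44.3% to 28.3%, Atp5j-208 from 20.8% to 11.1% and Uqcrq-204 from 21.2% to 14.8%. The protein-coding Atp5b-201 went from 73.1% to 93.3%. Atp5f1-203, annotated as a decay target, rose from 33.4% to 47.1%, and Ndufa5-204 and Ndufs4-202 held 65.8% and 46.0%. The most divided gene was Ndufb5, whose main transcript held 38.3%. The main transcript was the same in both quantifications for 76 of the 77.

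Shorter genes were listed at higher TPM. The median transcript length of the 77 detected genes was 720 bases, against 2475 bases for all detected protein-coding genes. Across the 77 genes, Spearman's rho of length with mean TPM was -0.44, and it was -0.67 over the 35 genes of complex I and -0.20 over 9388 detected protein-coding genes. Counts scaled by full length in place of the effective length, a choice made after seeing the data, gave -0.20 over the 77. Atp5mpl and Atp5k, with effective lengths of 112 and 117 bases, had 372 and 362 TPM and were at 151 and 152 on that scale. Fragments were selected at 250 to 400 bases per the labels, near the length of these transcripts, and how far the selection moved their levels was not tested.

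Of the 77 genes, 19 (24.7%) start within 1000 bases of a protein-coding gene that points the other way, against 11.1% of all detected protein-coding genes. Sdhd lies 98 bases from Timm8b, which encodes a chaperone of mitochondrial import and had 79.7, 72.8 and 73.6 TPM. Ndufa7 lies 10 bases from Rps28, a ribosomal protein gene at 1854, 1138 and 1726 TPM. Sdha lies 29 bases from Ccdc127, at 8.35, 8.92 and 9.85 TPM, and Ndufa1 lies 82 bases from Rnf113a1, at 0.260, 0.320 and 0.480 TPM. The partners thus ranged from far below to far above the respiratory chain gene.

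The lists of assembly factors, electron carriers and regulators each had a lower median than the group's 92.9 TPM. Each of the 16 assembly factors found for complex I was detected, and their median was 5.30 ± 0.98 TPM (SD, n = 3), from Tmem186 at 1.37 TPM to Tmem126a at 29.5 TPM. Assembly factors of complex IV were detected in 20 of 22 cases with a median of 10.6 ± 0.86 TPM, from Pet117 at 0.153 TPM to the copper chaperone gene Cox17 at 227, 294 and 234 TPM. Of the assembly factors of complexes II, III and V, 2 of 4, 5 of 6 and 5 of 5 were detected, the highest being Sdhaf2 at 28.1, Uqcc2 at 55.0 and Tmem242 at 59.0 TPM and the lowest Sdhaf3 at 0.440, Lyrm7 at 0.737 and Fmc1 at 5.31 TPM. Each of the 16 electron carriers and partners outside the rule was detected, and their median was 11.9 ± 1.76 TPM, from Coq4 at 1.66 TPM to Etfb at 87.3 TPM. That list also holds the subunit genes Cyc1, at 38.2, 39.5 and 40.8 TPM, and Ndufab1, at 39.8, 57.9 and 35.4 TPM.

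Among 12 regulators of mitochondrial gene expression 11 were detected, at a median of 12.2 ± 0.97 TPM. Nrf1 had 13.6, 14.3 and 14.5 TPM, Gabpa had 16.1, 20.1 and 16.4 TPM, and Gabpb1 was the highest at 18.4, 26.7 and 17.2 TPM. Ppargc1a, the inducible coactivator of mitochondrial biogenesis, was the one not detected, with 2, 1 and 2 counts. These are levels of RNA in 1 condition and carry no statement on activity.

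The subunits encoded by mitochondrial DNA were set against the nuclear subunits of the same complex. The median of the nuclear genes minus that of the mitochondrial genes was -4.69 ± 0.54 for complex I and -4.34 ± 0.52 for complex III on the log2(TPM + 0.1) scale. For complex IV it was -3.34, 0.09 and 1.30 in replicates 1, 2 and 3, and for complex V -4.24, -4.26 and -1.64. Without replicate 1 the mean for complex IV was 0.69, so its sign rests on that library. Mitochondrial genes of these complexes share sequence with copies in the nuclear genome, and mt-Co2 had 1366, 83.6 and 54.6 TPM and mt-Atp6 had 401, 278 and 9.83 TPM. With the TPM of the copies added, a step chosen after seeing the data, the differences were -5.19 ± 0.33, -4.32 ± 0.52, -6.18 ± 0.46 and -6.32 ± 0.43 for complexes I, III, IV and V.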

How the data were processed

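Poly(A)-selected RNA from 3 libraries of 1 group was analysed. The authors deposited gene and transcript tables with expected counts and TPM from alignments to the transcriptome, and a transcript table with its own TPM and estimated counts made directly from the reads (the second quantification), per the deposited file headers and notes. The program is stated for neither, and 22 of the 85 genes had counts more than 0.005 from whole. Sources used here do not give the aligner, the counter's settings or the use of strand. The build is mm10 per the labels. Rows that name no mouse gene held 0.117%, 0.0993% and 0.0820% of the counts of replicates 1, 2 and 3 and were left out.

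Levels are TPM as deposited, with log2(TPM + 0.1) for differences, and a gene was detected at 1 TPM or more in all 3 libraries. Expected counts were rounded for the equal-rate test (chi-square, TMM-scaled library sizes, Benjamini-Hochberg over all genes passing edgeR's default filter), which was tested on simulated data, and compares libraries, not conditions. Log2 CPM (prior count 2) came from edgeR 4.0.16 in R 4.3.3, with DESeq2 1.42.0 size factors as an alternative; other steps used Python 3.11.15, pandas 2.3.3, numpy 2.4.6, scipy 1.17.1 and matplotlib 3.10.9. Counting error alone is covered by floors, and depth was 24450338 to 60595742 counts.

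GENCODE M21 gave gene positions, transcript sequences and start sites. RefSeq promoter windows were matched by Ensembl identifier, else by symbol, with a start within 500 bases of that of the main transcript, which is the transcript with the highest summed TPM; up to 200 bases are printed. Named with values are the 3 highest and 3 lowest genes of each complex, all genes of the pairs, all undetected genes, the 5 most variable detected genes, and the highest and lowest gene of each list; 1 item is not reported here. Markers, lists, pairs and members were chosen with earlier results of these data known. Alternatives were other pseudocounts, filters, scalings and medians, the second quantification and leaving out each library.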

Additional observations from a re-analysis of the deposited data

How the results depend on the processing

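All 3 libraries belong to 1 group, so no difference between conditions was tested, and depth limits what is said of the undetected isoforms and Cox7a1. Counts per full transcript length, genes joined with their copies and complex IV without its tissue-restricted isoforms were alternatives chosen after seeing the data. No paired analysis was possible because there is no second group to pair with.

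The level of the whole group over the median detected gene, 2.66 on the log2 scale, was 2.59 with a pseudocount of 1 TPM, 2.85 over detected genes alone, 2.52 in the second quantification, 2.01 as a mean over genes, 2.29 per full length and 2.74 with copies. Complex I (2.21) was 1.82 per full length and 2.32 with copies. Complex II (2.58) was 2.51 when 1 TPM was added before the logarithm, 2.52 in the second quantification, 2.52 as a mean and 2.47 per full length. Complex III (3.33) was 3.26, 3.03, 3.24 and 2.53 under the same 4 alternatives. Complex IV (3.27) was 3.20 with a pseudocount of 1 TPM, 4.15 over detected genes, 0.24 as a mean, 2.87 per full length and 4.24 without tissue-restricted isoforms. Complex V (3.49) was 3.36 in the second quantification, 2.87 as a mean, 3.20 per full length and 3.63 with copies.

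Leaving out each library, which also re-forms the set of detected genes, gave 2.70 to 2.73 for the group, 2.23 to 2.31, 2.63 to 2.67, 3.38 to 3.41, 3.31 to 3.36 and 3.51 to 3.61 for complexes I to V.
The count of genes called by the equal-rate test ranged from 36 to 50 (63 with all libraries), against 50.6% to 64.3% of all tested genes, and was 70 in the second quantification, against 77.7%. The median deviation of replicate 1, -0.02, ranged from -0.029 to 0.011 without each library in turn, and the nuclear minus mitochondrial difference of complex IV, -0.65, from -1.62 to 0.69.

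Over means in place of medians, complex I minus IV was 2.01, II minus IV 2.28 and III minus V 0.37, all reversed, where the mean of complex IV takes in 4 genes at 0. Complex III minus IV was reversed over detected genes (-0.81), in the second quantification (-0.20), per full length (-0.35) and without tissue-restricted isoforms (-0.91), and IV minus V over detected genes (0.63) and without those isoforms (0.75). All 10 differences kept their direction with a pseudocount of 1 TPM and without each library. The level of Ndufb4 was -0.037 in the second quantification and -0.19 per full length, and that of Atp5g2 was -0.32 in the second quantification. Of the 18 pairs, all kept their direction under every alternative except Atp5g1 to Atp5g2, at 2.37 in the second quantification. The deviation of replicate 1 was 0.0015 in the second quantification and -0.12 on log2(TPM + 0.1), where that of replicate 2 was 0.10. The nuclear minus mitochondrial difference of complex IV was -5.34 as a mean, -4.09 in the second quantification and -6.18 with copies, and that of complex V -5.48 in the second quantification and -6.32 with copies. The cause of these changes was not tested.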
